A study of Mus musculus with 16 samples.

Results

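The cMyc+lateCD23lo subpopulation is the last of the light zone cMyc+ B cell stages that the study sorted from mouse germinal centres (GCs), and it was set here against the cMyc+prePB, cMyc+early and cMyc+lateCD23int subpopulations pooled. Its members are the 4 RNA-seq libraries labelled cMyc+ lateCD23lo among 16 libraries in all, 4 from each subpopulation. The contrast took the cMyc+lateCD23lo mean minus the equally weighted mean of the other 3 group means, with the library number of 1 to 4 in the titles as a block, over the 12505 of 51912 listed genes with a mean of at least 10 normalised counts over all libraries.

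Every library came from splenic B cells of cMyc gfp/gfp mice, a knock-in reporter strain on a C57BL/6J background in which cMyc is made with GFP attached. Male and female mice, 6 to 15 weeks old, had received sheep red blood cells intraperitoneally and were used at day 7, with no unimmunised group. All 4 subpopulations shared the gate B220+ CD38low CD95+ cMycGFP+. The cMyc+prePB cells (prePB, pre-plasmablast) were then taken as CD69hi, the cMyc+early cells as CD23hi CD21/35hi, the cMyc+lateCD23int cells as CD23int CD21/35int, and the cMyc+lateCD23lo cells as CD23lo CD21/35lo. In the paper's gating, the early and late cells were light zone cells that remained once CD69hi cells had been removed. Dark zone cells, defined as CXCR4hi CD86lo, had been removed from them as well. The labels do not say whether animals were pooled for a library or whether libraries of the same number share animals, so the p-values measure the spread between these libraries, which may be partly technical.

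B cells of the GC cycle between the light zone, where they capture antigen and receive T cell help, and the dark zone, where they divide and mutate their antibody genes. cMyc is induced transiently in the light zone cells that are selected, and these cells then re-enter the cell cycle on their way to the dark zone, or leave as plasma cell or memory B cell precursors. CD23, encoded by Fcer2a, and CD21/35, encoded by Cr2, are surface receptors for IgE and for complement fragments.

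The libraries held 19812080 to 25795815 reads, of which 1.34% to 2.95% were mitochondrial, and 14650 to 15573 genes were above 0. GC genes such as Bcl6, Gcsam and S1pr2 were present in every library. In the cMyc+lateCD23lo libraries 3 reads, taken here as the counting floor, corresponded to 2.81 to 3.23 normalised counts. Transcripts that mark sex varied between libraries and followed the library number. The summed level of 4 Y-linked genes was highest in number 2 in all 4 groups (4978 to 8353, against 1276 to 5173 in the other numbers), and Xist, transcribed from the inactive X, was highest in number 1 in all 4 (1649 to 2234). Ddx3y, a Y-linked RNA helicase, was 0.83 ± 0.19 (SE) higher on the log2 scale in cMyc+lateCD23lo with an adjusted p of 0.0600, and Xist differed by -0.61 ± 0.26 with an adjusted p of 0.288. The levels of these transcripts thus differed in part with the group as well. With the summed level of 4 Y-linked genes as a covariate, added after seeing the data, the standard error of the contrast grew 1.52-fold and 0 genes passed in either direction, while 711 had an unadjusted p under 0.05. All 92 genes described in the next paragraph kept their direction in that fit, and 88 of them had an unadjusted p under 0.05. The median ratio to their log2 difference without the covariate was 0.895. These genes were chosen from the same libraries, which by itself favours a kept direction and a low unadjusted p in a refit. 1 of the 92 genes, Cfp, lies on the X chromosome and 0 on the Y.

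Of the 12505 genes, 92 (0.736%) differed between cMyc+lateCD23lo and the other 3 subpopulations in limma at a Benjamini-Hochberg adjusted p under 0.05. The cMyc+lateCD23lo level was higher for 38 genes (0.304% of those tested) and lower for 54 (0.432%). Lower genes differed more in size, with a median log2 difference of -1.25 against 0.77 for the higher genes. Each of the 92 had the same sign within all 4 library numbers, which held for 23.1% of all genes tested. The call itself favours such genes. Setting a gene apart from every other group was taken to mean a call in the pooled contrast together with an unadjusted p under 0.05 in the same direction against each subpopulation separately. That left 72 genes (0.576% of those tested), 23 higher (0.184%) and 49 lower (0.392%). By adjusted p, 71 of these 72 were not called against cMyc+lateCD23int alone, so their separation from that group rests on unadjusted p-values. Among the called genes, the 4 cMyc+lateCD23lo libraries lay wholly above the other 12 for 14 genes and wholly below them for 18. Over all genes tested, 44 (0.352%) lay wholly above and 24 (0.192%) wholly below. Without the block, 7 genes were higher and 17 lower, and all 24 were among the 92.

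**Figure D1:**
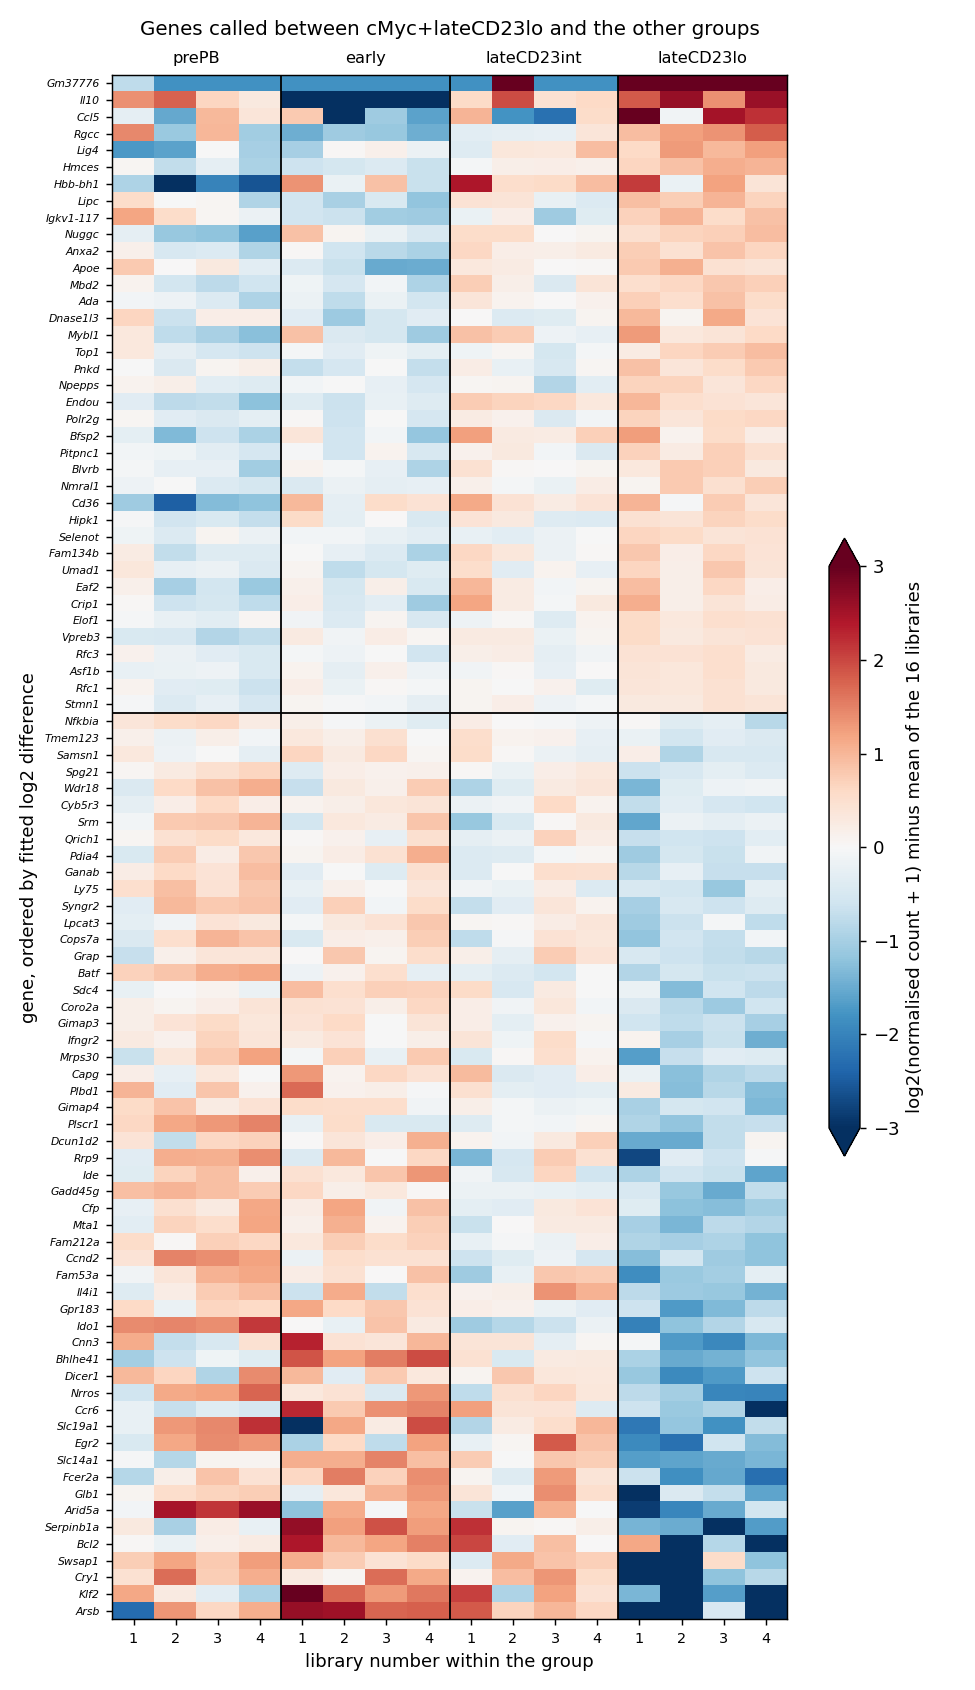
Level of the 92 called genes (rows, the 38 higher genes above the line and the 54 lower genes below it) in the 16 libraries (columns, numbered within each group), as log2(normalised count + 1) minus the mean of the 16 libraries. The cMyc+lateCD23lo columns are mostly red in the upper block and blue in the lower block, and the cMyc+lateCD23int columns are paler than the prePB or early columns in most of the lower block.

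The gate itself was visible in Fcer2a. Its normalised counts were 3953, 1721, 2138 and 1285 in cMyc+lateCD23lo and 3404 to 17966 elsewhere, a log2 difference of -2.09 ± 0.32 (SE). This is the sorting criterion and not a finding. Cr2 was at 8993, 2633, 4392 and 2935 in cMyc+lateCD23lo and at 1057 to 2939 in cMyc+prePB, which was not gated on CD21/35. In the groups that were, it was at 5463 to 9350 in cMyc+early and 5012 to 8658 in cMyc+lateCD23int. The cMyc+lateCD23lo libraries 2, 3 and 4 lay below both of these ranges, and library 1 was above all but cMyc+early library 1. The Cr2 log2 difference was -0.63 ± 0.22 (SE) against cMyc+early and -0.70 ± 0.22 against cMyc+lateCD23int, but 1.27 ± 0.22 against cMyc+prePB. Pooled over these groups it was -0.02 ± 0.18, and the sign of this pooled value turned under several alternatives. Cd69, the gate of cMyc+prePB, was at 1451 to 3686 in cMyc+lateCD23lo and at 2002 to 6126 in the others. Its mean was 3453 in cMyc+prePB, 3160 in cMyc+early and 3762 in cMyc+lateCD23int, so this RNA did not mark the CD69hi gate. Myc itself was at 1528, 1698, 1282 and 1198 in cMyc+lateCD23lo against 2300 to 4417 in cMyc+prePB, 1183 to 3563 in cMyc+early and 857 to 3817 in cMyc+lateCD23int. Its log2 difference of -0.81 ± 0.26 did not pass over all genes (adjusted p = 0.159), and the ranges overlapped with all groups but prePB.

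The genes lower in cMyc+lateCD23lo included Gpr183, Klf2, Ccr6 and Bcl2. Gpr183 (chr14:121952551-121965195 on the minus strand in GRCm38) encodes EBI2, the oxysterol receptor that draws B cells towards the outer follicle. It was at 697, 329, 428 and 621 in cMyc+lateCD23lo, at 1632, 933, 1683 and 1613 in cMyc+prePB, at 2410, 1638, 1872 and 1447 in cMyc+early, and at 1234, 1177, 936 and 843 in cMyc+lateCD23int. No cMyc+lateCD23lo library reached the lowest of the other 12, and the group mean was 0.358 of the mean of the others (log2 difference -1.48 ± 0.19, adjusted p = 0.00175). Klf2, a transcription factor that drives expression of lymphocyte egress receptors, was near the counting floor, at 6.47, 0, 5.10 and 1.02, against 9.02 to 41.9 in cMyc+prePB, 45.2 to 153 in cMyc+early and 9.16 to 78.6 in cMyc+lateCD23int. Its libraries did not overlap with the others, and its fitted log2 difference of -3.51 ± 0.66 (adjusted p = 0.0243) depends on the pseudocount of 1. In bulk samples, fewer cells of a type and less RNA per cell cannot be told apart.

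Ccr6, the receptor for the chemokine CCL20, was at 222, 158, 183 and 38.8 in cMyc+lateCD23lo. The cMyc+early libraries held 598 to 1662, the cMyc+lateCD23int libraries 261 to 812 and the cMyc+prePB libraries 213 to 295, so that only the last range met that of cMyc+lateCD23lo (-1.93 ± 0.32, adjusted p = 0.0117). Bcl2, the founding anti-apoptotic gene of its family, was uneven within the group. It stood at 330, 1.87, 81.6 and 12.2 in cMyc+lateCD23lo against 117 to 799 in the other 12 libraries. The cMyc+lateCD23lo library numbered 1 lay inside the range of the others and libraries 2, 3 and 4 below it. Bcl2 had a log2 difference of -2.97 ± 0.64 (adjusted p = 0.0415), lost its call in 12 of the 16 fits that left out a library, and had an adjusted p of 0.165 without the block.

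Cyclin D2 gave the smallest p of all genes. Ccnd2 (chr6:127125162-127152193 on the minus strand in GRCm38), which drives entry into the cell cycle from G1, was at 1999, 3326, 2300 and 2106 in cMyc+lateCD23lo. Its values were 6412, 13640, 12710 and 11288 in cMyc+prePB, 4280, 6965, 6611 and 6656 in cMyc+early, and 3158, 3761, 4339 and 3436 in cMyc+lateCD23int. The group means were ordered stepwise, from 11012 ± 3216 (SD, n = 4) in prePB to 6128 ± 1242 in early, 3674 ± 508 in lateCD23int and 2433 ± 608 in lateCD23lo, with cMyc+lateCD23lo library 2 above the lowest cMyc+lateCD23int library. The pooled log2 difference was -1.37 ± 0.13 (adjusted p = 0.000117). Gadd45g, a stress-induced growth arrest gene, had no overlap, at 465, 299, 228 and 391 against 532 to 1322 in the other 12 (-1.29 ± 0.18, adjusted p = 0.00453).

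**Figure D2:**
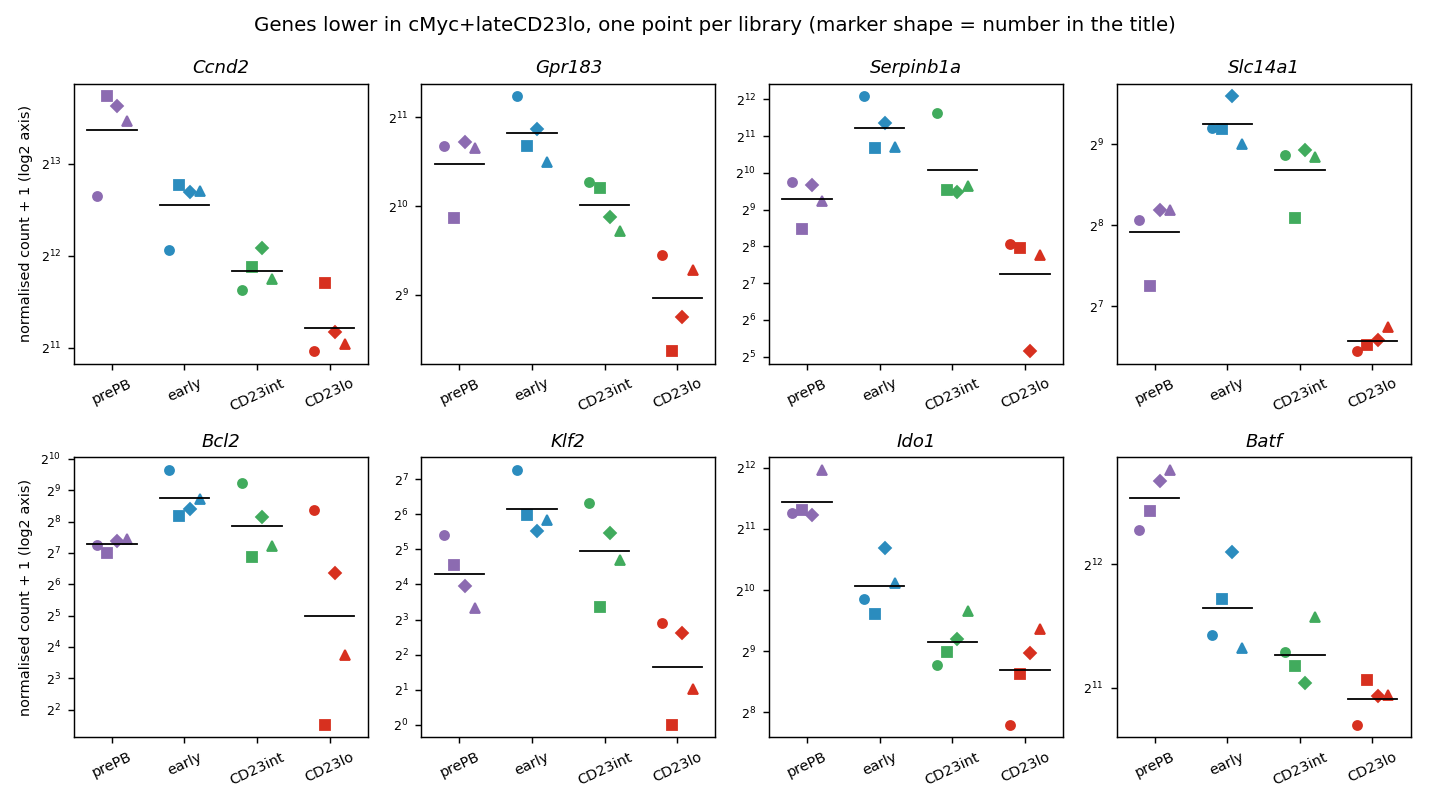
Normalised counts plus 1 on a log2 axis for 8 genes that were lower in cMyc+lateCD23lo, with a point for each library, the marker shape for its number (circle 1, square 2, diamond 3, triangle 4), and a bar for the group mean of the log2 values. For Gpr183, Serpinb1a, Slc14a1 and Klf2 all 4 cMyc+lateCD23lo points lie below the other 12, whereas cMyc+lateCD23lo library 1 of Bcl2 (330) lies among them and Ido1 and Batf overlap with cMyc+lateCD23int.

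Egr2, Il4i1 and Nfkbia, from the list of light zone genes, were also lower. Egr2, an early response factor downstream of the antigen receptor, was at 92.7, 73.9, 232 and 142 in cMyc+lateCD23lo and at 182 to 1258 elsewhere (-2.02 ± 0.37, adjusted p = 0.0201). Il4i1, a secreted amino acid oxidase induced by IL-4, was at 3777, 3100, 2981 and 2463 and did not overlap with the other libraries, which held 3916 to 16771 (-1.48 ± 0.29, adjusted p = 0.0302). Nfkbia, which encodes the NF-kB inhibitor IkBa and is itself an NF-kB target, had a smaller difference, at 5008 to 9126 against 6860 to 13776 (-0.47 ± 0.10, adjusted p = 0.0459), and was not apart from cMyc+early.

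A set of lower genes was highest in cMyc+prePB and graded down through cMyc+early and cMyc+lateCD23int. Ido1, the tryptophan-degrading dioxygenase, averaged 2842 ± 767 (SD, n = 4) in prePB, 1117 ± 383 in early, 584 ± 159 in lateCD23int and 444 ± 184 in lateCD23lo, and the pooled difference was -1.53 ± 0.20 (adjusted p = 0.00175). The last 2 groups overlapped, with an unadjusted p of 0.0719 between them. Batf, an AP-1 factor needed for class switching, was at 4969 to 6937 in prePB and at 1667, 2138, 1951 and 1969 in cMyc+lateCD23lo, where it overlapped with the 2107 to 3052 of cMyc+lateCD23int (-0.91 ± 0.14, adjusted p = 0.00886). Plscr1, an interferon-inducible phospholipid scramblase, did separate cMyc+lateCD23lo from all others, at 1136, 932, 1275 and 1312 against 1544 to 6027 (-1.18 ± 0.18, adjusted p = 0.00758). Of the 54 lower genes, 28 had their highest mean in prePB, 25 in early and 1 in lateCD23int.

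Lower genes with the highest mean in cMyc+early included Serpinb1a and Slc14a1. Serpinb1a, an intracellular inhibitor of serine proteases, was at 266, 249, 34.7 and 216 in cMyc+lateCD23lo, against 356 to 862 in prePB, 1647 to 4339 in early and 713 to 3194 in lateCD23int. The group mean was 0.125 of the mean of the others (-2.95 ± 0.40, adjusted p = 0.00256). Slc14a1, a urea transporter, was at 86.2, 90.8, 94.8 and 106 in cMyc+lateCD23lo and at 151 to 770 elsewhere. Its mean there was 94.5 ± 8.49 (SD, n = 4), and it was the only gene that passed in limma between cMyc+lateCD23lo and cMyc+lateCD23int (-2.11 on the log2 scale, adjusted p = 0.0392).

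A pair of GTPases of immunity-associated proteins, expressed in lymphocytes and encoded by neighbouring genes of a family on chromosome 6, were both without overlap. Gimap4 was at 3084, 4193, 4043 and 2366 against 5286 to 10872, and Gimap3 at 1418, 1257, 1361 and 1061 against 1739 to 3224. Their means were 0.455 and 0.496 of the mean of the others, with adjusted p-values of 0.0013 and 0.00453. Reads shared between such related genes could be split in counting, so the share of each in the pair is uncertain.

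The largest fitted differences among the lower genes came from genes at low levels. Arsb, a lysosomal sulfatase, was at 2.16, 0.936, 25.5 and 0 in cMyc+lateCD23lo against 6.45 to 227 elsewhere (-4.51 ± 0.80, adjusted p = 0.0184). Cry1, a repressor of the circadian clock, was at 2.16, 3.74, 25.5 and 33.7 against 62.8 to 195 (-3.34 ± 0.55, adjusted p = 0.0125), without overlap. Swsap1, a factor of homologous recombination, stood at 3.23, 4.68, 137 and 39.8 against 69.7 to 223, so that library 3 lay inside the range of the others. Glb1, the lysosomal beta-galactosidase, was at 16.2, 187, 154 and 84.7 against 212 to 673 (-2.21 ± 0.40, adjusted p = 0.0201). For Arsb, Klf2, Cry1, Swsap1 and Bcl2, edgeR on the recovered reads gave adjusted p-values of 0.130, 0.0975, 0.0577, 0.210 and 0.179.

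The other lower genes of the 20 with the largest differences had log2 differences between -2.29 and -1.42. Arid5a, an RNA-binding protein that stabilises inflammatory transcripts, was at 35.6 to 177 in cMyc+lateCD23lo and at 84.5 to 1584 elsewhere. Slc19a1, the reduced folate carrier, was at 44.2 to 118 against 22.01 to 907, where the lowest of all libraries was cMyc+early library 1. Nrros, which limits reactive oxygen species, was without overlap, at 125 to 292 against 294 to 1684. Dicer1, the microRNA-processing nuclease, was at 48.7 to 120 against 99.2 to 499, Cnn3, an actin-binding calponin, at 41.8 to 156 against 98.4 to 809, and Fam53a at 64.7 to 196 against 113 to 536. Srm, the spermidine synthase and a cMyc target, was at 688, 1782, 1681 and 1798 against 923 to 4106 (-0.72 ± 0.13, adjusted p = 0.0201), lowest in library 1 in every group, with an unadjusted p of 0.175 against cMyc+lateCD23int.

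Among the genes higher in cMyc+lateCD23lo, Hmces had the lowest p. Hmces (chr6:87913935-87936629 on the plus strand in GRCm38) encodes a protein that shields abasic sites in single-stranded DNA. It was at 6108, 7193, 8334 and 7969 in cMyc+lateCD23lo, at 4075, 2333, 3246 and 2023 in prePB, at 2533, 2731, 2947 and 2444 in early, and at 3775, 4378, 4512 and 4342 in lateCD23int. The lowest cMyc+lateCD23lo library was above the highest of the others, and the group mean was 2.26 times the mean of the others (1.22 ± 0.15 on the log2 scale, adjusted p = 0.0013). Lig4, the ligase of non-homologous end joining, was at 371, 592, 483 and 581 against 74.2 to 467 elsewhere (1.36 ± 0.29, adjusted p = 0.0401). It was not apart from cMyc+lateCD23int, with an unadjusted p of 0.0588.

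Other higher genes named here, some of them chosen after their values were seen, differed by less. Rfc1 and Rfc3, subunits of the complex that loads the sliding clamp PCNA, were at 8365, 8266, 8841 and 7958 and at 4875, 4858, 5151 and 4272 in cMyc+lateCD23lo. The other 12 libraries held 4163 to 7395 and 2440 to 4208, so neither gene overlapped, with log2 differences of 0.49 ± 0.11 (adjusted p = 0.0431) and 0.53 ± 0.12 (adjusted p = 0.0432). Asf1b, a chaperone of histones H3 and H4 (17849 to 20736 against 10670 to 16279), and Stmn1, a microtubule-destabilising protein (20537 to 22919 against 11867 to 19194), were also without overlap. Top1, the topoisomerase that relieves torsion ahead of polymerases, was at 11791, 15486, 16749 and 18685 against 6391 to 12386 (0.86 ± 0.16, adjusted p = 0.0238). Polr2g, a subunit of RNA polymerase II, was at 14936, 12087, 14056 and 14602 against 6151 to 11230 (0.74 ± 0.12, adjusted p = 0.0125), and Elof1, a transcription elongation factor, at 4648 to 5533 against 2687 to 3990.

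Ada, adenosine deaminase of the purine salvage pathway, was at 6157, 5320, 6861 and 5478 in cMyc+lateCD23lo against 1973 to 4861 in the others (0.88 ± 0.13, adjusted p = 0.00726). All 4 libraries were above the rest, the nearest being cMyc+lateCD23int library 1. Vpreb3, a protein of the pre-B and mature B cell antigen receptor pathway, was at 5883 to 7182 against 2623 to 5816, also without overlap (0.56 ± 0.11, adjusted p = 0.0267). Eaf2, a transcription elongation factor abundant in GC B cells, overlapped with cMyc+lateCD23int, at 7218, 4285, 5805 and 4340 against 3595 to 7568 there, and was higher mainly against prePB, at 1766 to 4237.

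**Figure D3:**
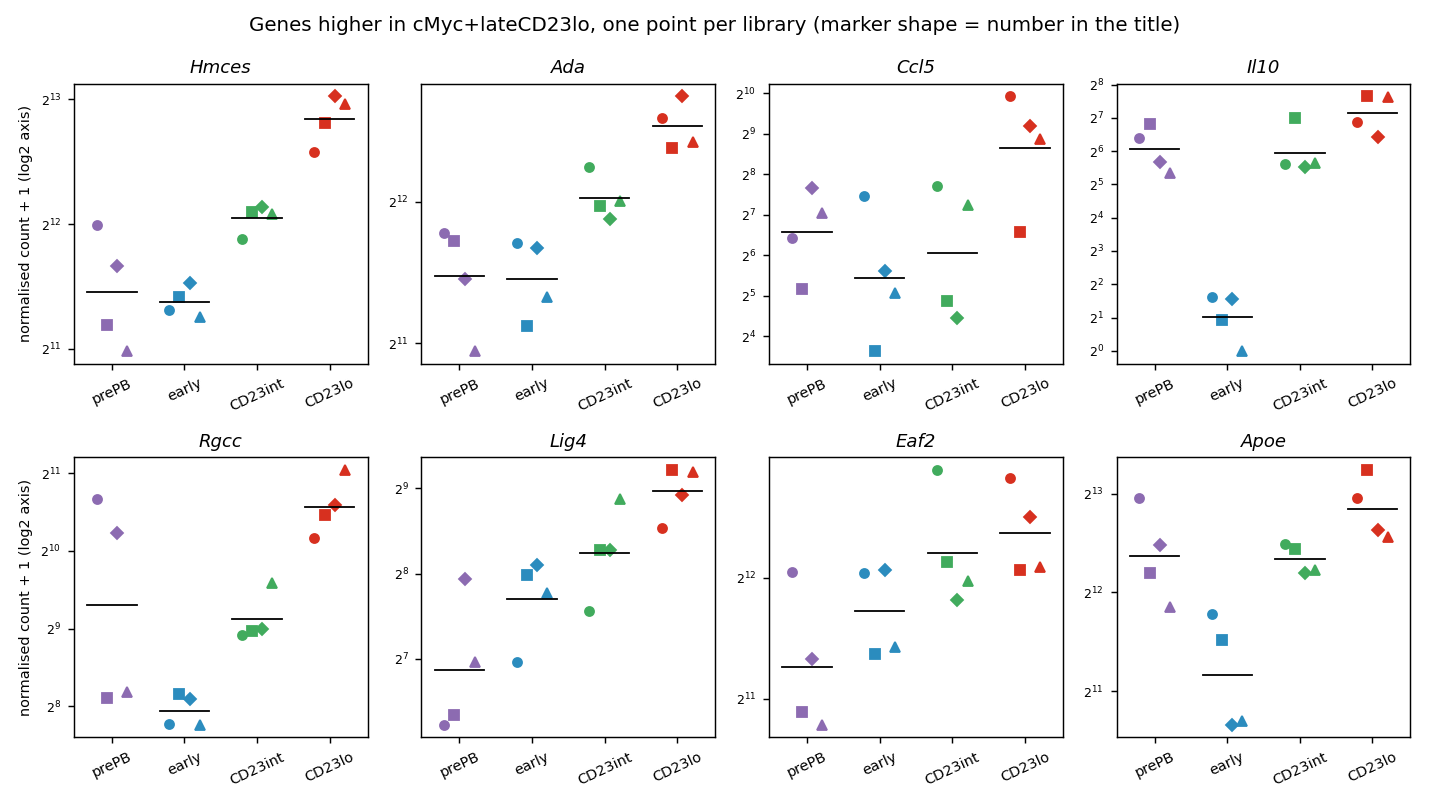
Normalised counts plus 1 on a log2 axis for 8 genes that were higher in cMyc+lateCD23lo, with a point for each library, the marker shape for its number (circle 1, square 2, diamond 3, triangle 4), and a bar for the group mean of the log2 values. All 4 cMyc+lateCD23lo points of Hmces (6108 to 8334) and Ada (5320 to 6861) lie above the other 12, Il10 is near 0 in cMyc+early only, and Ccl5 library 2 (94.5) lies among the other groups.

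The chemokine and cytokine among the higher genes were less even. Ccl5, which attracts T cells and monocytes, was at 973, 94.5, 581 and 471 in cMyc+lateCD23lo and at 209 or below elsewhere (2.61 ± 0.54, adjusted p = 0.0369), so library 2 lay among the other groups and libraries 1, 3 and 4 above them. In the same 4 libraries summed T cell markers were 550, 173, 193 and 177, with Il7r at 295 in library 1. Summed NK cell markers there were 0, 77.7, 63.2 and 29.6. The part of cells other than B cells in the Ccl5 level was not tested. Il10, the immunoregulatory cytokine, was at 116, 199, 84.6 and 198 in cMyc+lateCD23lo, at 39.7 to 112 in prePB, at 44.6 to 127 in lateCD23int, and at 0 to 2.10 in early, below the counting floor. Its pooled difference of 2.80 ± 0.57 (adjusted p = 0.034) therefore rested on cMyc+early, and the unadjusted p was 0.14 against prePB and 0.106 against lateCD23int. Rgcc, a regulator of cell cycle kinases, was at 1144, 1406, 1540 and 2105 against 217 to 1629 in the others (1.77 ± 0.37, adjusted p = 0.0401), with prePB libraries 1 and 3 (1629 and 1202) inside its range. The unannotated transcript Gm37776 was at 62.5, 40.2, 71.4 and 42.8 in cMyc+lateCD23lo, at 0 in all cMyc+early libraries and above 3 reads in 1 other library, cMyc+lateCD23int library 2 (34.6), and its fitted difference of 5.23 depends on the pseudocount.

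Several higher genes are also expressed by macrophages, which engulf dying B cells in the GC. Apoe, the lipid transport apolipoprotein, was at 7942, 9656, 6332 and 6038 in cMyc+lateCD23lo, at 3701 to 7938 in prePB, at 1618 to 3508 in early and at 4691 to 5750 in lateCD23int (0.89 ± 0.15, adjusted p = 0.0125). Lipc, the hepatic lipase, was at 1361, 1216, 1480 and 1152 against 319 to 1060, without overlap (1.11 ± 0.19, adjusted p = 0.0141). Dnase1l3, a secreted nuclease that digests chromatin of dying cells, was at 2517, 1356, 2822 and 1711 against 607 to 2006 (0.86 ± 0.16, adjusted p = 0.0238). The summed level of the 12 macrophage and monocyte markers was 772 to 1440 in cMyc+lateCD23lo, 203 to 389 in early, 281 to 973 in lateCD23int and 307 to 964 in prePB, and 2 to 5 of the 12 were above the floor in a cMyc+lateCD23lo library. In cMyc+lateCD23lo libraries 1 to 4, Lyz2 was at 320, 0, 968 and 272, Cd68 at 445, 753, 271 and 549, and Adgre1 at 62.5, 0, 184 and 0. In the other 12 libraries these were at 0.827 to 489, 165 to 426 and 0 to 63.2. Marco was at 0 in all 16 libraries, and C1qa at 0, 0.936, 0 and 0 in cMyc+lateCD23lo. The part of these cells in the result was not tested. Summed T cell markers were 173 to 550 in cMyc+lateCD23lo and 38.8 to 387 in the others, and summed neutrophil markers were 0 to 46.9 over all libraries.

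The remaining apart genes higher in cMyc+lateCD23lo spanned lipid transfer, proteolysis and other functions, with log2 differences of 0.67 to 0.85. Pitpnc1, a phosphatidylinositol transfer protein, was at 4022 to 5587 against 2304 to 4146 elsewhere. Npepps, a cytosolic aminopeptidase (1199 to 1471 against 506 to 1048), Selenot, a selenoprotein of the endoplasmic reticulum (1748 to 2101 against 1006 to 1402), and Pnkd (1274 to 1823 against 603 to 1168) were without overlap. Hipk1, a nuclear kinase (4614 to 5543 against 2136 to 5202), Nmral1, an NADPH sensor (1566 to 2579 against 1032 to 1734), and Umad1 (1482 to 2307 against 773 to 1870) did overlap.

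The distance to each of the other subpopulations was unequal. Tested separately, cMyc+lateCD23lo differed from cMyc+prePB in 192 genes (1.54% of those tested), with 102 higher (0.816%) and 90 lower (0.72%). It differed from cMyc+early in 90 genes (0.72%), with 48 higher (0.384%) and 42 lower (0.336%), and from cMyc+lateCD23int in 1 gene (0.008%). At an unadjusted p under 0.05 there were 2084, 1674 and 1064 genes, in that order. These contrasts share the cMyc+lateCD23lo libraries. Among the called genes, the nearest group was cMyc+lateCD23int for 26 of the 38 higher and 29 of the 54 lower, cMyc+prePB for 9 and 17, and cMyc+early for 3 and 8. By group means, 29 of the 38 higher genes were ordered upwards from early through lateCD23int to lateCD23lo, and 48 of the 54 lower genes downwards. In all genes tested, the lateCD23int mean lay between the other means for 42.4%, a share that the choice of genes different from both would by itself raise. Of the 38 higher genes, 19 had their lowest mean in prePB, 17 in early and 2 in lateCD23int.

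**Figure D4:**
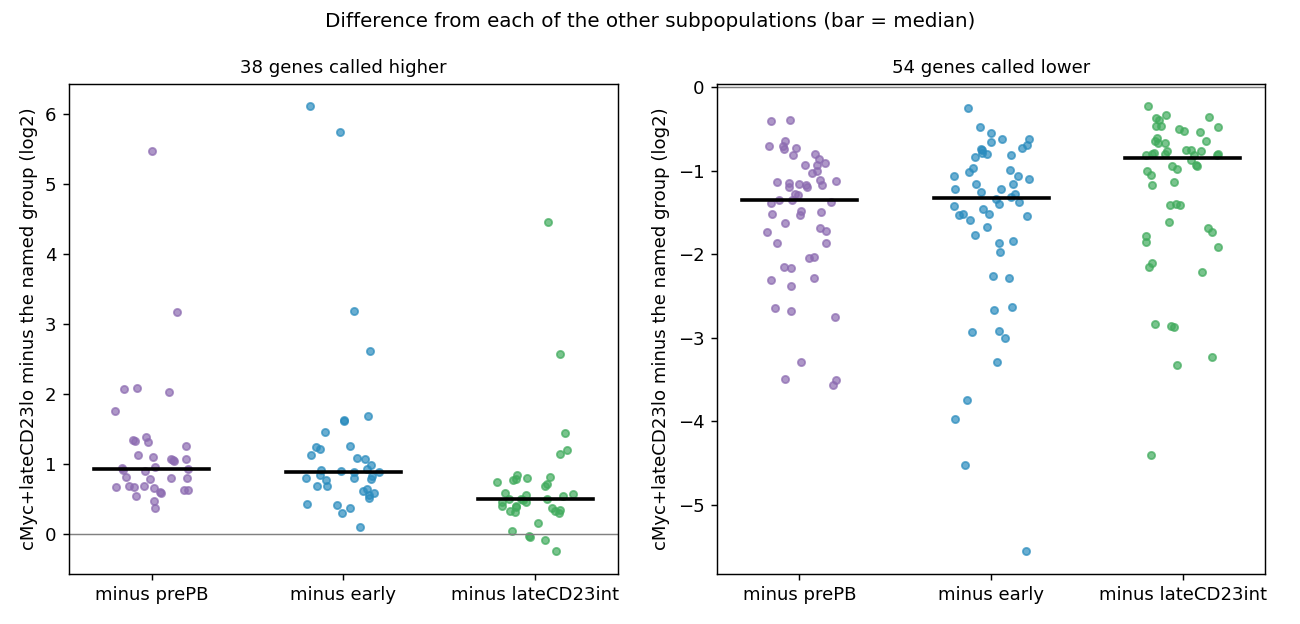
Fitted log2 difference of cMyc+lateCD23lo from cMyc+prePB, cMyc+early and cMyc+lateCD23int (x axis) for the 38 higher genes (left) and the 54 lower genes (right), with a point per gene and a bar at the median. The medians for cMyc+lateCD23int lie nearest to 0 in both panels, and Il10 lies at 6.12 against cMyc+early.

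Gene lists of GC programmes are described here by their counts and medians, beside a median log2 difference of 0.01 over all genes tested. The largest shifts were in lists of memory B cell, light zone and NF-kB genes. Lists share members, so their shifts are not independent. Gpr183 is in the memory, light zone and migration lists, Nfkbia in the light zone and NF-kB lists, and Egr2 in the light zone and immediate early lists. Of 18 memory B cell genes tested, 17 were lower, with a median of -0.81, and 4 were called (Klf2, Bcl2, Ccr6 and Gpr183, all lower, against 0.432% of all genes). Without cMyc+lateCD23lo library 4 this median was -0.45. Naive B cells also express these 4 genes, and the list of 7 naive B cell markers had a median of -0.27, or -0.15 against prePB, -0.42 against early and -0.70 against lateCD23int, with 4 lower and 0 called. Among these, Ighd, the heavy chain of IgD, was at 169 to 377 in cMyc+lateCD23lo, 183 to 658 in prePB, 498 to 808 in early and 315 to 734 in lateCD23int, and Zfp318, needed for IgD expression, was at 8.42 to 177, 76.9 to 321, 42.5 to 454 and 87.4 to 293. The list was mixed, and 3 of the 7 markers were higher. Fcmr was at 5323 to 8747 in cMyc+lateCD23lo and 3607 to 7595 elsewhere, and Ccr7 at 55.1 to 265 and 3.14 to 221. The summed level of the 7 markers was 11250 to 22671 in cMyc+lateCD23lo, 9307 to 15530 in prePB, 15194 to 21707 in early and 17699 to 26117 in lateCD23int, and the part of such cells in the result was not tested. Uncalled members of the memory list included S1pr1, a receptor for egress, at -1.44. Of 19 light zone genes, 17 were lower with a median of -0.60, and 4 were called, namely Egr2, Gpr183, Il4i1 and Nfkbia. Among the others, Icam1 had a difference of -0.98, Slamf1 of -0.80 and Cd40 of -0.60, with adjusted p-values of 0.0656, 0.069 and 0.0657.

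Of 19 NF-kB target genes, 16 were lower, with a median of -0.60 and 1 call (Nfkbia). In the list of T cell help genes 14 of 17 were lower with a median of -0.41, and in that of MHC class II genes all 10 were lower with a median of -0.25, without a call in either. Of 27 cMyc target genes, 23 were lower with a median of -0.26 and 1 call (Srm). Against the single groups the cMyc target median was -0.45 for prePB, -0.21 for early and -0.11 for lateCD23int. The memory, light zone, NF-kB, T cell help, MHC class II and cMyc target medians were below 0 under every alternative that was run.

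Medians of the S phase, G2/M and dark zone lists were above 0 by small amounts. Of 29 S phase genes 21 were higher with a median of 0.20, and 0 were called by limma. Members of low p included Slbp, which binds histone mRNA, at 0.47 (adjusted p = 0.06), and Pcna at 0.42 (adjusted p = 0.106). Of 30 G2/M genes 20 were higher with a median of 0.12, with Mki67 at 0.53 (adjusted p = 0.0656) and 0 called. The G2/M median was -0.11 against cMyc+early alone, and in the pooled contrast it was 0.015 without cMyc+lateCD23lo library 4. Of 14 dark zone genes 10 were higher with a median of 0.12, and Lig4 was the 1 called. Without cMyc+lateCD23lo library 1 the dark zone median was 0.016. Cxcr4, the dark zone chemokine receptor, was at 142 to 174 in cMyc+lateCD23lo against 72.2 to 248 elsewhere and did not pass (adjusted p = 0.562). Plasma cell genes had a median of 0.01 with 8 of 15 higher, and Prdm1, which encodes Blimp-1, was at 10.2 to 133 in cMyc+lateCD23lo, 36.3 to 130 in lateCD23int, 6.31 to 119 in prePB and 0 to 7.96 in early.

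**Figure D5:**
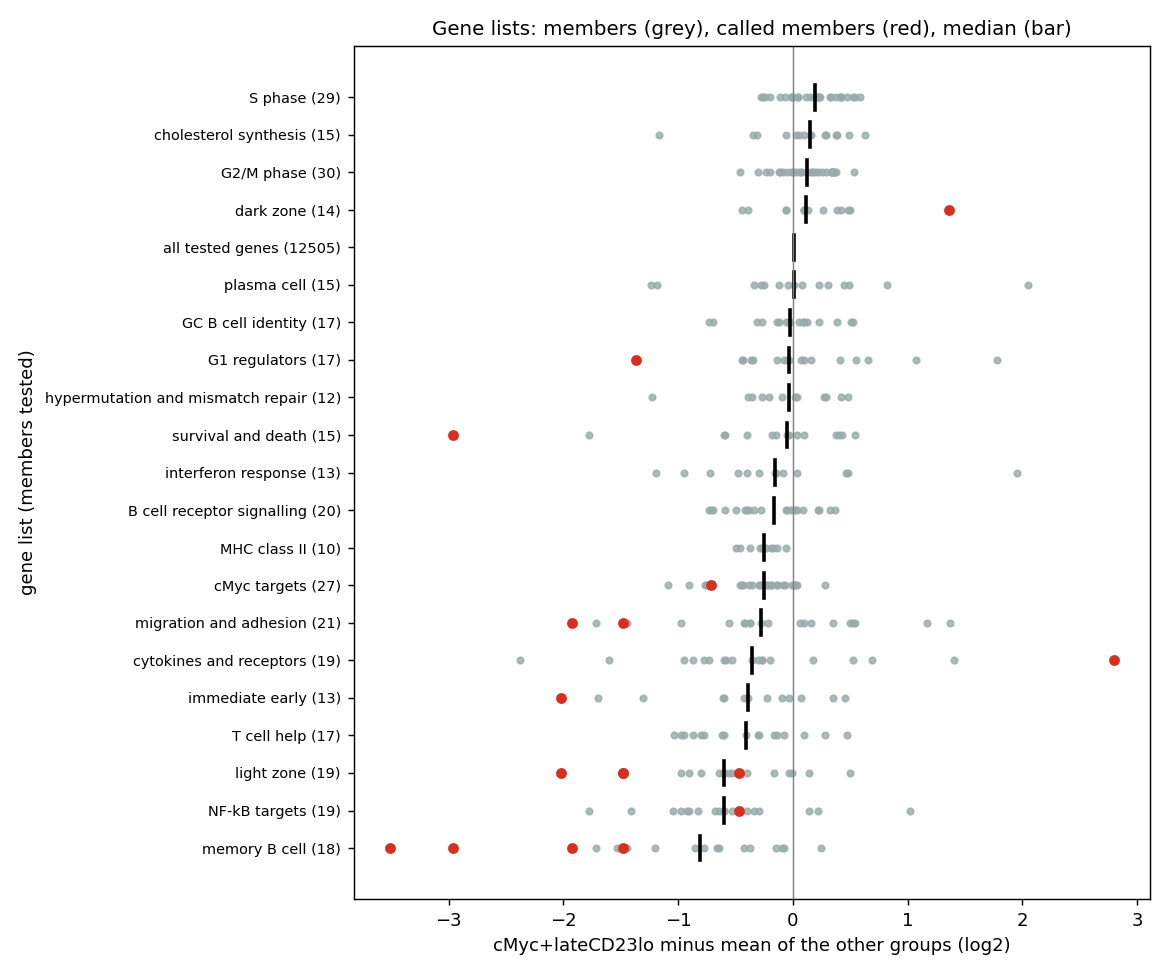
Log2 difference of cMyc+lateCD23lo from the mean of the other subpopulations (x axis) for the members of each gene list (grey points, called members in red, bar at the median), with the number of members tested in parentheses. The memory B cell, NF-kB and light zone lists lie furthest to the left, with medians of -0.81, -0.60 and -0.60, and the S phase list furthest to the right at 0.20.

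In other lists single genes stood out rather than the list. Among 17 G1 regulators the median was -0.04, with Ccnd2 called lower. Among 15 survival and death genes the median was -0.05, with Bcl2 called lower. Among 13 immediate early genes 10 were lower with a median of -0.39 and Egr2 called, and among 21 migration and adhesion genes 12 were lower with a median of -0.28, or -0.09 without cMyc+lateCD23lo library 3, and Ccr6 and Gpr183 called. In the cytokine list 14 of 19 were lower and Il10 was the 1 called gene, higher. Lists of hypermutation and mismatch repair (median -0.04), GC identity (-0.03), B cell receptor signalling (-0.17), interferon response (-0.16) and cholesterol synthesis genes (0.15) held 0 calls.

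Promoters of the called genes were searched for letters of factors tied to these lists. The genes were chosen by the same contrast, so their common direction is no sign of a common factor. RefSeq promoters of build GRCm38.p6, from 250 bases before to 50 after the start, were used. The set searched listed promoters for 24 of the 38 higher genes, 46 of the 54 lower genes and 27025 genes in all. Genes that it did not list, such as Ccnd2, Srm and Polr2g, were not searched. The 27025 genes were not limited to those tested here, so expressed genes as such were not the background. Most of the motif counts are small. The E-box CACGTG, which cMyc-Max dimers can bind, occurred for 2 higher genes (8.33%) and 7 lower genes (15.2%), against 8.09% of all genes. The E2F-like letters TTTCCCGC or TTTGGCGC, on either strand, occurred for 2 higher genes (8.33%) and 2 lower genes (4.35%), against 1.8% of all. The NF-kB-like letters, GGG and any 2 bases followed by TTTCC, on either strand, occurred for 1 higher gene (4.17%) and 2 lower genes (4.35%), against 1.89%. The CCAAT box, on either strand, can overlap with the NF-kB-like letters and occurred for 12 higher genes (50%) and 20 lower genes (43.5%), against 41.1%. A match is a description of the sequence and not a bound site.

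The promoters of both higher genes with an E-box, of the 2 lower genes of lowest p with an E-box in their only listed promoter, and of Nfkbia are shown because they tie these letters to genes whose values are given above or, for Gadd45g and Cry1, to lower genes without overlap. Each is printed 5′ to 3′ on the strand of the gene, with the E-box in capitals for the first 4 and the NF-kB-like letters in capitals for Nfkbia. The Top1 promoter is chr2:160645647-160645946 (+ strand), with the match beginning 205 bases before the start. The Rfc1 promoter is chr5:65335590-65335889 (- strand), with the match beginning 236 bases before the start. The Gadd45g promoter is chr13:51846425-51846724 (+ strand), with the match beginning 142 bases before the start. The Cry1 promoter is chr10:85185005-85185304 (- strand), with the match beginning 60 bases before the start. The Nfkbia promoter is chr12:55492598-55492897 (- strand), with the match beginning 29 bases before the start.
Top1: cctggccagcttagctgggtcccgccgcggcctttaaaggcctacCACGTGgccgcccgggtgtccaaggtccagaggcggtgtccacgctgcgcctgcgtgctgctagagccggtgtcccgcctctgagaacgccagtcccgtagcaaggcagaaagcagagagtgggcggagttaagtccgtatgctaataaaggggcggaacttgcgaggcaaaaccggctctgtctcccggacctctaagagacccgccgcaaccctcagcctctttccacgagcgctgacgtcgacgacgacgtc
Rfc1: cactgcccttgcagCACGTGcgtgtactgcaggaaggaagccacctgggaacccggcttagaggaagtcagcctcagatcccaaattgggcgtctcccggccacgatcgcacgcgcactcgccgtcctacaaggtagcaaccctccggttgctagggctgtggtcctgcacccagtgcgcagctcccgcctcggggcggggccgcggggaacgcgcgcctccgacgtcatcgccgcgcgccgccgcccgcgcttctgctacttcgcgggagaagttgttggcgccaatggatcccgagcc
Gadd45g: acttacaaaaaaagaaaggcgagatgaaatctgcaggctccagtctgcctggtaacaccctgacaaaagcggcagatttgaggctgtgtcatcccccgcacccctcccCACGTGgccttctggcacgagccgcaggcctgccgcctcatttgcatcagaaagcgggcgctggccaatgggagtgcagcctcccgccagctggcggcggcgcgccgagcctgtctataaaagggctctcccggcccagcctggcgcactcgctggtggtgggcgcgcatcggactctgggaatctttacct
Cry1: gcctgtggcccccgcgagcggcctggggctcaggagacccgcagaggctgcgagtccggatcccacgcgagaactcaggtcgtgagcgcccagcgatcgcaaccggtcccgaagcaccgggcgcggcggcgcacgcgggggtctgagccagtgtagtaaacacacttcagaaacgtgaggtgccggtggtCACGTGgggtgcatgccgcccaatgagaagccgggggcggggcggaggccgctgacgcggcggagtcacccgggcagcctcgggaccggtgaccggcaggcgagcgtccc
Nfkbia: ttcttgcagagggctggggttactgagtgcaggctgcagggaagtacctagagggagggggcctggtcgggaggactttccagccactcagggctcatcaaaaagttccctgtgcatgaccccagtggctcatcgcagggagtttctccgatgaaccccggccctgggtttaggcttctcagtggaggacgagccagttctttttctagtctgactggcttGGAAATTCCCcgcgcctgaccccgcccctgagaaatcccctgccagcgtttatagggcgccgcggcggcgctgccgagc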

How the data were processed

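RNA from the sorted cells was sequenced by the authors on a HiSeq4000. The submitters' processing notes name Trimmomatic 0.36, STAR 2.5.2a, RSEM 1.2.31, DESeq2 1.20.0, R 3.5.1 and build GRCm38, without roles. The deposited table holds 51912 genes in 16 columns of a normalised signal, that is, read counts divided by a size factor per library. Division by the smallest value above 0 of each column gave whole reads for 100% of values (within 0.01).

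Values were analysed as log2(normalised count + 1) with limma 3.58.1 in R 4.3.3 (mean-variance trend, group and library number as terms, 9 residual degrees of freedom, Benjamini-Hochberg adjustment over 12505 genes with a mean of at least 10). Differences of low genes can be understated or overstated on this scale. Beside edgeR they were smaller for Klf2 (-3.51 against -3.89) and Gm37776 (5.23 against 7.51). They were larger for Bcl2 (-2.97 against -2.24), Swsap1 (-3.05 against -2.38), Cry1 (-3.34 against -3.17) and Arsb (-4.51 against -4.33). In simulated data for this contrast over 12505 genes, limma called 89 of 200 changed genes with 6 false calls, and 0 genes without changes. The simulation held no library-number effect, no sex difference and no difference among the other groups. It therefore does not give the error rate of the calls in the real libraries. Alternatives used other pseudocounts, filters and scalings, no trend, no block, edgeR 4.0.16 and DESeq2 1.42.0 on the recovered reads, other reference groups and each library left out. The number is a block because the contrast was set up that way. Deviations of same-numbered libraries from their group means correlated by -0.13 to 0.17, with means of 0.12, 0.024, -0.012 and 0.071 in numbers 1 to 4. Every pair of numbers 2 and 3 was under 0.1, with highest values of 0.083 and 0.076. The criterion for pairing by number was thus not met, although Y-linked and Xist levels followed the number in all 4 groups.

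The libraries, gene lists and rules were chosen with earlier results of these data known. Named genes are the sort markers, the 20 apart genes per direction with the largest log2 difference, and called members of the lists, or up to 3 members of lowest p where a list had no call. Marker lists are given as sums, and 3 genes that these rules or lists hold are not reported here. Gadd45g, Plscr1, Ido1, Batf, Gimap4, Gimap3, Rfc1, Asf1b, Stmn1, Eaf2, S1pr1 and single marker genes were named after their values were seen. Gene positions follow GENCODE vM21 (12471 of 12505 tested genes matched). The floor of 3 reads covers counting error only. Each SE comes from the spread between libraries in the fit, and each SD is over the 4 libraries of a group.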

Additional observations from a re-analysis of the deposited data

Results flagged for a closer look

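Within groups of 4 libraries, 31 of 496 sets of values (6.25%) over 124 genes held a library whose gap to the nearest other exceeded Dixon's 95% critical value of 0.829, where chance flags about 1 in 20. In cMyc+lateCD23lo, Srm was low in library 1 (688 against 1681 to 1798) and Slamf1 was high there (4478 against 1401 to 1747). Arsb was high in library 3 (25.5 against 0 to 2.16) and Apex2 low in library 4 (58.1 against 127 to 128). The library numbered 1 gave most flags in the other groups. In cMyc+lateCD23int library 1, high values were 3194 for Serpinb1a, 8290 for Cd36, 1672 for Plbd1, 3350 for Blvrb, 6654 for Hbb-bh1, 41399 for H2-DMb2 and 19009 for Cd86. In cMyc+early library 1, Klf2 (153), Plbd1 (3913) and Cr2 (9350) were high and Ccnd2 (4280) and Spg21 (2087) low. In cMyc+prePB library 1, Jchain (104890), Rgs13 (14152), Cxcr4 (248) and Gm37776 (1.07) were high and Myc (2300) low.

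Further flags were cMyc+lateCD23int library 2 with Slc14a1 low (271) and Gm37776 (34.6), Il10 (127) and Mki67 (15103) high, and cMyc+lateCD23int library 4 with Rgcc high (771). They also included cMyc+prePB library 2 with Gpr183 low (933) and Prdm1 high (119), cMyc+prePB library 4 with Ido1 high (3990), cMyc+early library 3 with Cxcr4 high (109) and cMyc+early library 4 with Gimap4 low (5578).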

How the results depend on the processing

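Directions were stable and calls were not. None of the 92 called genes changed direction under any alternative, 9 were called in all 16 fits that left out a library and 44 in at least 12. The 92 were chosen from these same libraries, which favours a kept direction in any refit. Counts are given as higher and lower, then as the same for genes apart from each group, then as calls against prePB, early and lateCD23int. With no replicate block they were 7 and 17, 6 and 14, and 33, 35 and 1, and with the block in edgeR 40 and 33 with 31 lower apart genes. edgeR with no block gave 6 and 13, 5 and 11, and 31 and 23 against prePB and early. DESeq2 gave 228 and 353, 114 and 249, and 774, 417 and 101. Without a filter on low values they were 11 and 28, 8 and 25, and 92 and 53. With no trend they were 3 and 16, 3 and 15, and 53, 32 and 2. Quantile normalisation gave 0 calls against lateCD23int. The Y-linked covariate gave 0 and 0, 0 and 0, and 16, 0 and 0. Against the mean of early and lateCD23int 20 and 32 genes passed, against that of prePB and lateCD23int 9 and 25, and against that of prePB and early 77 and 89. Leaving out single libraries gave 1 to 104 higher and 10 to 153 lower genes, 1 to 76 and 10 to 132 apart, and 42 to 344, 28 to 245 and 0 to 2 calls. The cMyc+lateCD23lo libraries 2, 3 and 4 decided most, with 5 and 17, 1 and 14, and 1 and 10 genes without them, against 71 and 92 without library 1. Counts were 104 and 153 without cMyc+early library 3, 68 and 103 without cMyc+lateCD23int library 2, 53 and 68 without cMyc+prePB library 1, and between 11 and 27 higher and 30 and 49 lower without cMyc+early libraries 1, 2 and 4, cMyc+lateCD23int libraries 1 and 4 or cMyc+prePB libraries 2, 3 and 4. The cause was not tested, beyond fewer residual degrees of freedom. The sign turned for Cr2 (0.10 in edgeR with no block, 0.038 with the Y-linked covariate, 0.28 against prePB and lateCD23int, 0.32 against prePB and early, -0.21 to 0.11 without single libraries) and for Cd86 (0.0048 against prePB and early), which were not called.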
